A study of Homo sapiens with 8 samples.

Results

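Transcripts of 8 genes that start, carry out or restrain apoptosis were measured in a pair of pancreatic ductal adenocarcinoma cell lines, with and without siRNA against the homeobox gene HOXB7. The genes were the initiator caspases CASP8 and CASP9, the adaptor APAF1, the executioner caspase CASP6, and the inhibitor of apoptosis (IAP) genes XIAP, BIRC2, BIRC3 and BIRC6. They were found by the gene name in the scanner files, which gave 10 of 34127 gene probes and 8 of 27274 gene names. CASP8 and XIAP had 2 probes each, numbered here from the brighter to the dimmer, and the other genes had 1. All 10 probes were well above background on all 8 arrays, so no member was lost to the filter on dim probes.

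MIA PaCa-2 was derived from a pancreatic ductal adenocarcinoma and Capan-1 from a hepatic metastasis of such a tumor. Each line contributed 2 arrays of cells collected 48 h after transfection with HOXB7-specific siRNA at 10 nM, delivered as Dicer-substrate duplexes with a lipid reagent, and 2 arrays of parental cells that received no siRNA. No array held cells given a scrambled duplex, so knockdown and transfection cannot be told apart. The methods describe duplicate transfections and arrays run in duplicate for each line, but do not say that the 2 arrays of a group came from separate cultures, so the p-values may measure technical spread. All arrays of a line shared 1 slide, and the lines were grown in different media, so cell line, slide and medium cannot be told apart. The methods name RPMI for plating before transfection, while Capan-1 was otherwise grown in IMDM. The siRNA and parental arrays of Capan-1 may therefore also differ in medium. Within each slide the siRNA arrays held the first pair of positions and the parental arrays the next pair, so array position and treatment cannot be told apart either. The median spot intensity ranged from 39.5 to 54.0 over the 8 arrays, and 69.2% to 74.3% of spots were well above background, with the number of arrays limiting the precision.

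Caspases are proteases made as inactive precursors. CASP8 is activated at death receptors on the cell surface, and CASP9 in the apoptosome, which APAF1 forms after cytochrome c has left the mitochondria. Both then activate executioner caspases, among which CASP6 is known for cutting nuclear lamins. XIAP binds and inhibits caspases directly. BIRC2 and BIRC3, also called cIAP1 and cIAP2, are ubiquitin ligases of tumor necrosis factor receptor complexes, and BIRC3 is a well known target gene of NF-kB. BIRC6 is a very large IAP protein with a ubiquitin-conjugating domain.

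The array reads each transcript through a 60-base probe, and the first 30 bases of the probes the results turn on are shown because a value belongs to that stretch of the transcript, not to the whole gene. BIRC3 and BIRC2 are given as neighboring paralogs that behaved differently, CASP6 and XIAP for the differences below, and CASP8 because its probes lie far apart. All are written 5′ to 3′ along the transcript.
BIRC3: tcctatacatcgaaggtgtgcatatatgtt
BIRC2: gataccattttggttaaaggaaatgctgcg
CASP6: actgtgaacggctcatggtacattcaagat
XIAP probe 1: ctttctgtgtggaaaactaagaaaattgct
XIAP probe 2: gtgaactgactttaagtaatcaagattgaa
CASP8 probe 1: aatccagctatgaatatagagggcttatga
CASP8 probe 2: tttcagaagaagtgagcagatcagaattga

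In hg18, the build of the array annotation, the BIRC3 stretch lies on the plus strand at chr11:101713566-101713595 and the BIRC2 stretch on the plus strand at chr11:101753601-101753630. The full probes of these genes are 40.0 kb apart, and no gene is listed between them in the RefSeq table for GRCh38.p14. The CASP6 stretch lies on the minus strand at chr4:110830124-110830153. The XIAP stretches lie on the plus strand at chrX:122875384-122875413 and chrX:122868770-122868799, with 6.6 kb between the probes. The CASP8 stretches lie on the plus strand at chr2:201860083-201860112 and chr2:201844501-201844530, with 15.5 kb between the probes. The array annotation lists 4 RefSeq transcripts for the brighter CASP8 probe and 1 for the dimmer probe, so the probes need not read the same isoforms. The exon or untranslated region of each probe was not looked up here, because no annotation of hg18 was used.

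The siRNA target was examined first. The values below are log2 intensities relative to the 75th percentile of the array. The HOXB7 probe read -4.82 and -4.09 on the parental MIA PaCa-2 arrays and was not well above background on either siRNA array of that line. The fitted difference was -3.32 (limma adjusted p = 0.0173), and the bound, which was not itself tested, was a fall of at least 3.16-fold. In Capan-1 the probe read -2.48 and -2.34 in parental cells and -5.26 and -4.80 after siRNA. The difference of -2.62 ± 0.26 (SE) did not pass the threshold (adjusted p = 0.121). The siRNA arrays lay below both parental arrays in each line. Among 7 ductal epithelial markers, 7 were well above background on all 4 Capan-1 arrays and 5 on all 4 MIA PaCa-2 arrays. EPCAM and CDH1, the exceptions in MIA PaCa-2, were at least 3999-fold and 893-fold higher in parental Capan-1. Each of 4 leukocyte marker genes had a probe well above background on all arrays of both lines, PTPRC at only 1 of its 5 probes. Among other marker lists, COL1A2 and VIM were 837-fold and 513-fold higher in parental MIA PaCa-2. PRSS1 was not well above background on the parental MIA PaCa-2 arrays, and its fitted level was 417-fold higher in parental Capan-1. The fibroblast and mesenchymal lists, which hold COL1A2 and VIM, were mixed. ZEB1 was also higher in parental MIA PaCa-2. In parental Capan-1, CDH2 was at least 47.1-fold higher at its brighter probe and COL1A1 was 2.16-fold higher, while DCN did not pass the threshold. COL1A1 was well above background on 1 of the 2 parental MIA PaCa-2 arrays. COL1A2 was well above background on 1 of the 2 parental Capan-1 arrays. The acinar list, which holds PRSS1, was mixed as well. CPA1 was not well above background on any array. CELA3A was 2.27-fold higher in parental Capan-1 at its brighter probe, while its dimmer probe lay on the other side of 0 and did not pass the threshold. The part of such differences in the results was not tested.

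**Figure D1:**
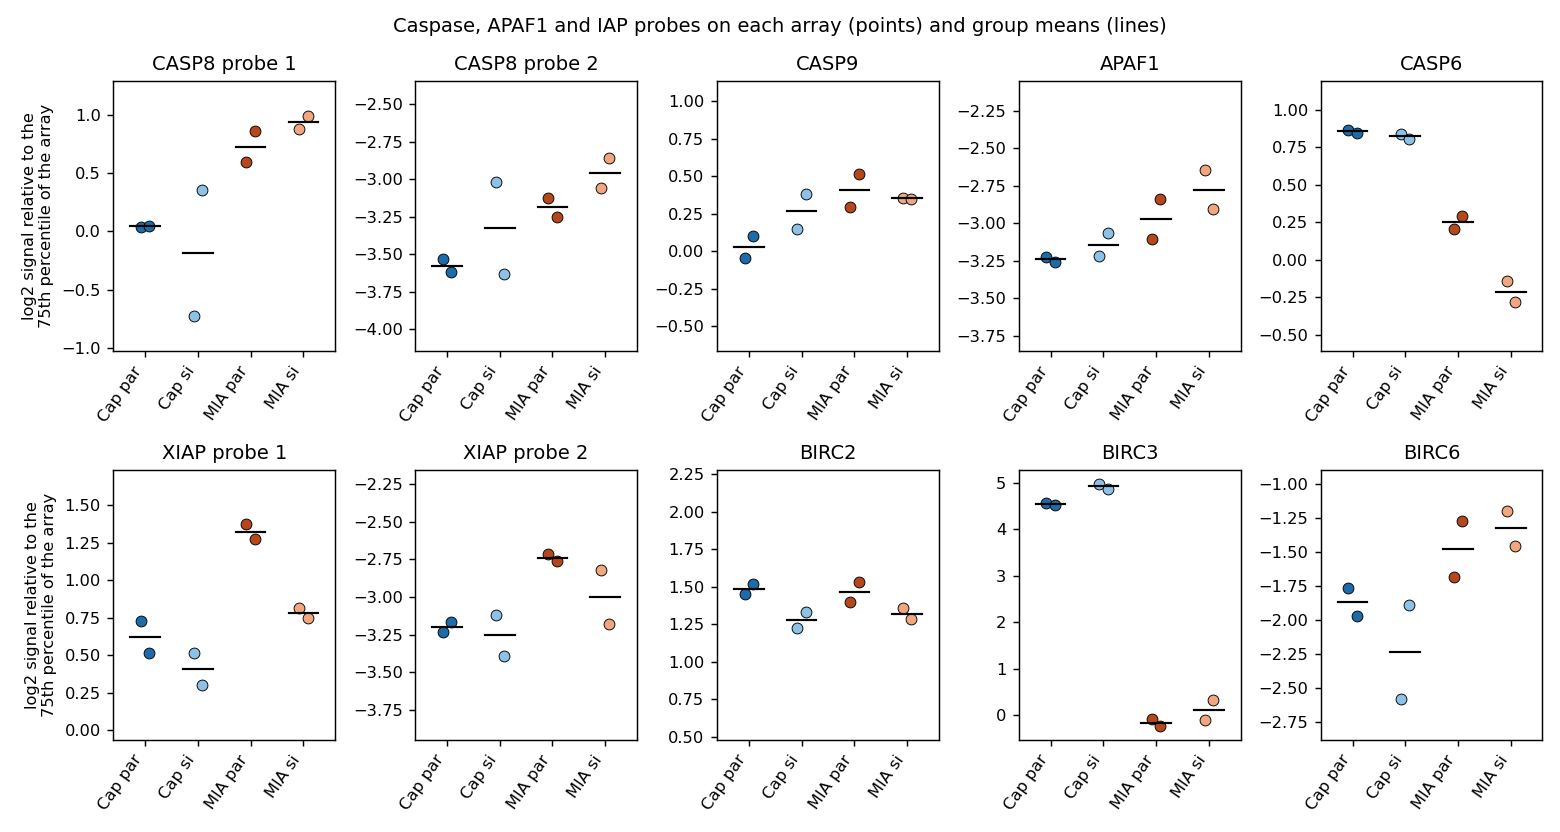
Log2 signal relative to the 75th percentile of each array (vertical axis, with its own range in each panel) for the 10 caspase, APAF1 and IAP probes in the 4 groups, for parental (par) and siRNA (si) arrays of Capan-1 (Cap) and MIA PaCa-2 (MIA), with points for single arrays and lines for group means (n = 2). BIRC3 separated the lines by more than 4 log2 units, and the Capan-1 siRNA arrays of CASP8 probe 1 stood far apart, at -0.72 and 0.36.

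Between the parental lines, BIRC3 was 25.8-fold lower in MIA PaCa-2 than in Capan-1. CASP6 was also lower in MIA PaCa-2, while XIAP and CASP9 were higher. In all, 4 of the 8 genes passed the threshold, a limma p of 0.05 after Benjamini-Hochberg adjustment over all probes tested, with 2 higher and 2 lower in MIA PaCa-2. Of the 20175 genes tested in this comparison 73.1% passed, with 40.1% higher and 31.7% lower, so the 4 of 8 members were a smaller share than that of all genes. The arrays of the lines did not overlap for 9 of the 10 probes, against 86.5% of all probes. The median log2 difference over the brightest probe of each of the 8 genes was 0.33, and over all probes tested it was 0.11.

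Among the IAP genes, the BIRC3 probe had an intensity of 310 and 225 on the parental MIA PaCa-2 arrays and of 6233 and 7141 on the parental Capan-1 arrays. Relative to the 75th percentile, on the log2 scale, these were -0.08 and -0.22 in MIA PaCa-2, and 4.56 and 4.52 in Capan-1. The lines lay far apart and the arrays of each line close together. The difference was -4.69 ± 0.15 (SE, adjusted p = 2.28e-06), a ratio with a 95% interval of 19.9-fold to 33.4-fold, and it ranked 1014 of 24968 probes by size. No spot was saturated. After siRNA the probe read -0.10 and 0.32 in MIA PaCa-2 and 4.98 and 4.87 in Capan-1, so the lines did not overlap in treated cells.

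BIRC2, the paralog beside BIRC3, read 1.40 and 1.53 in parental MIA PaCa-2 and 1.45 and 1.52 in parental Capan-1. These values overlapped, and the difference of -0.02 had an interval from -0.24 to 0.21 (adjusted p = 0.866). The XIAP probe 1 read 1.37 and 1.27 in MIA PaCa-2 and 0.73 and 0.51 in Capan-1. All MIA PaCa-2 values exceeded those of Capan-1, by 0.70 ± 0.12 (SE, adjusted p = 0.00241), or 1.63-fold. The XIAP probe 2 lay on the same side, with -2.71 and -2.76 against -3.23 and -3.17, a difference of 0.46 ± 0.15 (SE, adjusted p = 0.033). The call of probe 2 was lost in 4 of the 8 fits that left out 1 array, with an adjusted p up to 0.127, namely those without a parental array of either line. It was also lost with normexp background correction, where the difference was 0.13 (adjusted p = 0.264), without scaling (0.0753), when the spike-in probes set the scale (0.145) and without the filter on dim probes (0.0552). BIRC6 read -1.69 and -1.27 in MIA PaCa-2 and -1.76 and -1.97 in Capan-1, without overlap, and its difference of 0.39 had an interval from -0.26 to 1.03 (adjusted p = 0.231).

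Among the caspases, the executioner CASP6 read 0.21 and 0.29 in parental MIA PaCa-2 and 0.87 and 0.84 in parental Capan-1. The MIA PaCa-2 values were the lower ones on every array, by 0.61 on the log2 scale (difference -0.61 ± 0.09, SE, adjusted p = 0.00117), or 1.52-fold. The initiator CASP9 read 0.30 and 0.52 in MIA PaCa-2 and -0.05 and 0.10 in Capan-1. Its values did not overlap, with a difference of 0.38 ± 0.12 (SE, adjusted p = 0.034), but 5 of the 8 fits that left out 1 array lost this call, those without either MIA PaCa-2 siRNA array, MIA PaCa-2 parental replicate 2 or either Capan-1 parental array, with an adjusted p up to 0.163. It was also lost without scaling between arrays (adjusted p = 0.109), without the filter on dim probes (0.0584), with the parental arrays alone (0.0565) or when the spike-in probes set the scale (0.274).

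The CASP8 probe 1 read 0.59 and 0.86 in parental MIA PaCa-2 and 0.04 on both parental Capan-1 arrays. Its difference of 0.68 was larger than that of CASP9, but the interval ran from -0.13 to 1.50 (adjusted p = 0.111). The pooled spread includes the Capan-1 siRNA arrays, which lay far apart at this probe. Without Capan-1 siRNA replicate 1 the adjusted p was 0.00515, and without replicate 2 it was 0.00534. The CASP8 probe 2 read -3.13 and -3.25 in MIA PaCa-2 against -3.53 and -3.62, a difference of 0.39 (adjusted p = 0.136) that passed without Capan-1 siRNA replicate 1 (adjusted p = 0.0285) and without replicate 2 (0.0291). APAF1 read -3.10 and -2.84 in MIA PaCa-2 and -3.22 and -3.26 in Capan-1, with a difference of 0.27 and an interval from -0.06 to 0.61 (adjusted p = 0.123).

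**Figure D2:**
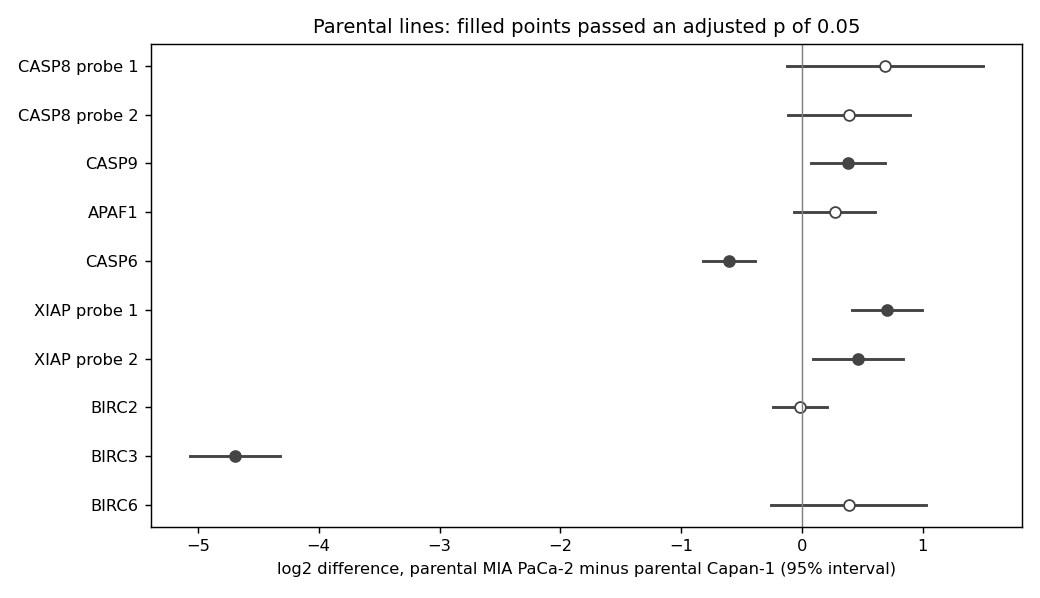
Log2 difference between parental MIA PaCa-2 and parental Capan-1 (horizontal axis) with its 95% limma interval for each of the 10 probes, filled where the adjusted p passed 0.05 (n = 2 arrays per group). BIRC3 lies at -4.69, and the other probes lie between -0.61 and 0.70.

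Sequence upstream of BIRC3 is shown because this gene had the largest parental difference of the 8 while its neighbor BIRC2 showed almost none. In the RefSeq promoter windows of GRCh38.p14, which span 250 bases before and 50 after each start, the 10-base NF-kB consensus was searched on both strands. It matched 2 places in the window of BIRC3, 1 place in 1 of the 2 windows of BIRC6 and none in any window of the other 6 genes. Of 35116 windows in the table, 5.91% held at least 1 match and 0.738% held 2 or more. The 250 bases before the BIRC3 start (plus strand, chr11:102317234-102317483) are written with the matches in capitals, at 199 to 190 and at 135 to 126 bases before the start.
BIRC3 upstream: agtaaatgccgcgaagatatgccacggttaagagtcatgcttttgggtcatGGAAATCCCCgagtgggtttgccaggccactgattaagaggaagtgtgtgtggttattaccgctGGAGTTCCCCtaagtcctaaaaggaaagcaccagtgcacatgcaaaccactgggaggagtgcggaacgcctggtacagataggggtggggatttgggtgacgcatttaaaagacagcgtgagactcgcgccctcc
A match describes letters and not binding, and no binding was measured. The sequence is that of the reference genome and was not read in either line. Its part in the parental difference was not tested.

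HOXB7 siRNA changed no member past the threshold in either line. In MIA PaCa-2, 0 of 8 genes passed, where 2.29% of all genes tested did, and 2 of the 10 probes had an unadjusted p under 0.05. In Capan-1, 0 of 8 passed against 0.00528% of all genes, with 1 probe under an unadjusted 0.05. The siRNA arrays lay wholly above or below the parental arrays for 6 of 10 probes in the MIA PaCa-2 cells and 5 of 10 in the Capan-1 cells, where 51.3% and 54.2% of all probes did so. The size of the log2 difference had a median of 0.22 over the 10 probes in each line, where the medians over all probes were 0.17 for MIA PaCa-2, 0.14 for Capan-1. With its sign, the median over the brightest probes of the 8 genes was 0.05 for MIA PaCa-2 and -0.12 for Capan-1, against 0.02 and -0.00 over all probes.

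In MIA PaCa-2 the lowest adjusted p values of the 8 genes belonged to CASP6 and XIAP. CASP6 read -0.14 and -0.29 on the siRNA arrays, both below the parental 0.21 and 0.29. The difference was -0.46, with an interval from -0.68 to -0.25 and an adjusted p of 0.0623. The XIAP probe 1 read 0.81 and 0.75 on the siRNA arrays against a parental 1.37 and 1.27. Here the groups were also apart, with a difference of -0.54, an interval from -0.83 to -0.25 and an adjusted p of 0.0832. The XIAP probe 2 differed by -0.26 (adjusted p = 0.387). Both genes passed the threshold under 3 of the 22 alternatives tried and did not pass under the other 19. The adjusted p ranged up to 0.233 for CASP6 and 0.251 for XIAP probe 1. In the 3 that passed, the values were as follows. The adjusted p of CASP6 was 0.0229 with normexp background correction, 0.0348 when the fit kept probes that passed background on each of the 8 arrays, and 0.0212 when the spread was allowed to follow intensity, and that of XIAP probe 1 was 0.0227, 0.0478 and 0.031.

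The other members moved less in MIA PaCa-2. CASP8 read 0.88 and 0.99 at probe 1 after siRNA, above its parental values by 0.21 on average (interval -0.61 to 1.02, adjusted p = 0.781). CASP9 read 0.36 and 0.35, inside the parental range, with a difference of -0.05 (interval -0.36 to 0.25). APAF1 differed by 0.19 (interval -0.14 to 0.53) and BIRC3 by 0.26 (interval -0.11 to 0.63). BIRC2 differed by -0.14 (interval -0.37 to 0.08) and BIRC6 by 0.15 (interval -0.49 to 0.79). The adjusted p of these genes was at least 0.39.

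In Capan-1, BIRC3 had the lowest adjusted p of the members. It read 4.98 and 4.87 after siRNA against 4.56 and 4.52 in parental cells, so that both treated arrays were higher. The difference was 0.39, with an interval from 0.01 to 0.76, an unadjusted p of 0.0443 and an adjusted p of 0.392. BIRC2 lay lower after siRNA, at 1.23 and 1.33 against 1.45 and 1.52, a difference of -0.20 (interval -0.43 to 0.02, adjusted p = 0.433). CASP6 differed by -0.03 (interval -0.25 to 0.18), CASP9 by 0.24 (interval -0.07 to 0.54) and APAF1 by 0.10 (interval -0.24 to 0.43). The XIAP probes differed by -0.21 and -0.05, and BIRC6 by -0.37 (interval -1.01 to 0.27).

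The CASP8 probe 1 was the least reproducible value in the set. Its Capan-1 siRNA arrays read -0.72 and 0.36, an SD of 0.76, where the median SD over the 40 pairs of arrays was 0.10. Of the treated arrays, replicate 1 lay below the parental 0.04 and replicate 2 above it. The difference was -0.23 in the fit of all arrays, -0.77 without Capan-1 siRNA replicate 2 and 0.31 without replicate 1, so its direction rests on which of these arrays is kept. The CASP8 probe 2 ran the other way on the same arrays, at -3.02 and -3.63.

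The responses of the lines were compared directly, as the MIA PaCa-2 difference minus the Capan-1 difference. No member passed (0 of 8, against 0.0097% of all genes), and 1 probe, CASP6, had an unadjusted p under 0.05. For CASP6 the responses differed by -0.43, with an interval from -0.73 to -0.13 and an adjusted p of 0.315. The widest gap was that of BIRC6, at 0.52 (interval -0.39 to 1.43, adjusted p = 0.646), followed by CASP8 probe 1 at 0.43 (interval -0.72 to 1.58). Over the brightest probes, 4 genes lay above 0 and 4 below. For XIAP probe 1 the responses differed by -0.33 (interval -0.74 to 0.09), for BIRC3 by -0.12 (interval -0.65 to 0.40) and for CASP9 by -0.29 (interval -0.72 to 0.14).

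**Figure D3:**
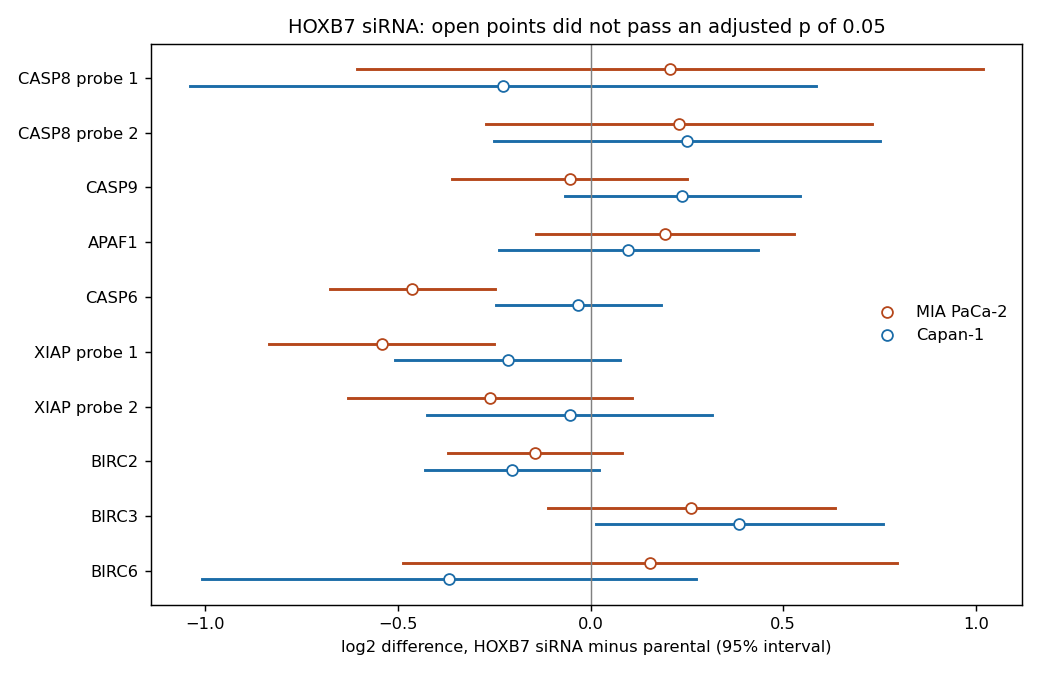
Log2 difference between HOXB7 siRNA and parental arrays (horizontal axis) with its 95% limma interval for each of the 10 probes in MIA PaCa-2 (orange) and Capan-1 (blue), n = 2 arrays per group. All points are open because none passed an adjusted p of 0.05, and CASP6 and XIAP probe 1 in MIA PaCa-2 and BIRC3 in Capan-1 have intervals that leave out 0.

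A list of 55 further genes of caspase activation and its control was examined in the same fits. All had a probe, with 80 probes in total, and 52 genes could be tested between the parental lines. Of these, 45 passed, with 25 higher in MIA PaCa-2, 18 lower and 2 with probes in opposite directions, a larger share than the 73.1% over all genes, and no test of this gap was made. BIRC8, NAIP and FASLG were not tested, because none of their probes exceeded background on both arrays of a parental line.

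The other caspases differed between the lines in both directions. CASP10, an initiator related to CASP8, was higher at 2 of the 3 probes tested, by 1.14 at the brightest, as were the inflammatory CASP1 by 0.72 and the epidermal CASP14 by 1.40, which was well above background on 1 of the 2 parental Capan-1 arrays. The inflammatory CASP4 and CASP5 were lower, with differences of -0.63 and -0.77. CASP2 did not pass.

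Of the further IAP genes, BIRC5, which encodes survivin and acts in cell division, was higher in MIA PaCa-2 by 0.50, and BIRC7, which encodes livin, by 2.40. The genes listed for proteins that act on IAPs or in their pathways split into 5 higher and 6 lower. TRAF1 and TRAF2, which carry BIRC2 and BIRC3 to tumor necrosis factor receptors, were lower in MIA PaCa-2, TRAF1 with a difference of -2.93 (7.61-fold, adjusted p = 1.66e-05) and TRAF2 with -0.79 at its brighter probe. TRAF3 (-0.47) and MAP3K14 (-0.93), the kinase of the noncanonical NF-kB pathway that BIRC2, BIRC3 and the TRAF proteins hold in check, were lower as well, as was the deubiquitinase USP19 (-0.77). XAF1, an antagonist of XIAP, was not well above background on the parental MIA PaCa-2 arrays at its brighter probe. It was higher in Capan-1, by at least 2.13-fold on a bound that is approximate so near background. DIABLO, the mitochondrial IAP antagonist also called SMAC, gave -0.02 at its brighter probe and 0.79 at its dimmer probe (adjusted p = 0.000768), and was counted as higher on the latter alone. HTRA2 (0.36), AREL1 (0.45), GSPT1 (0.61) and SEPTIN4 were higher in MIA PaCa-2. SEPTIN4 was not well above background in parental Capan-1 and was higher in MIA PaCa-2, by at least 1.90-fold on a similarly approximate bound.

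Around the apoptosome, cytochrome c (CYCS) was lower in MIA PaCa-2 at all 3 of its probes, by 1.66 at the brightest (difference -1.66, adjusted p = 7.5e-05). The chaperone HSPA4 (2.00), the inhibitor NOL3 (1.74) and APIP (1.87), which binds APAF1, were higher, and AVEN did not pass (-0.05). The death receptor group split into 5 higher and 5 lower among 12 tested. The tumor necrosis factor receptor TNFRSF1A was higher in MIA PaCa-2 by 2.69 (6.45-fold), and with it TRADD (0.54), RIPK1 (0.68), the ligand TNFSF10, also called TRAIL (1.26), and the decoy receptor TNFRSF10C (1.94), which was well above background on 1 parental Capan-1 array. The TRAIL receptors TNFRSF10A (-0.67) and TNFRSF10B (-0.35), the adaptor FADD (-0.67) and CFLAR (-0.72), the inhibitor of CASP8 activation, were lower. RIPK3, a kinase of necroptosis, was not well above background on the parental MIA PaCa-2 arrays at its dimmer probe and was at least 16.0-fold higher in Capan-1, while its brighter probe differed by 0.06. FAS and TNFRSF10D did not pass.

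The remaining groups contained the widest gaps. PYCARD, the adaptor of inflammasomes, had an intensity of 6.71 and 9.62 on the parental MIA PaCa-2 arrays and of 1949 and 2344 on the parental Capan-1 arrays, a difference of -8.09 ± 0.32 (SE, adjusted p = 4.85e-06). The pore-forming GSDMD was not well above background on the parental MIA PaCa-2 arrays and was at least 90.8-fold higher in Capan-1. GSDME, another gasdermin, ran the other way and was 5.28-fold higher in MIA PaCa-2. CARD8 (1.54), PIDD1 (0.82) and CRADD (0.30) were higher and RIPK2 (-0.94) lower, and the probes of NLRP1 passed in opposite directions. Of the caspase substrates, DFFA (1.27), LMNA (0.87) and PARP1 (0.69) were higher, the probes of DFFB opposed each other, and ACIN1 and ROCK1 did not pass.

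**Figure D4:**
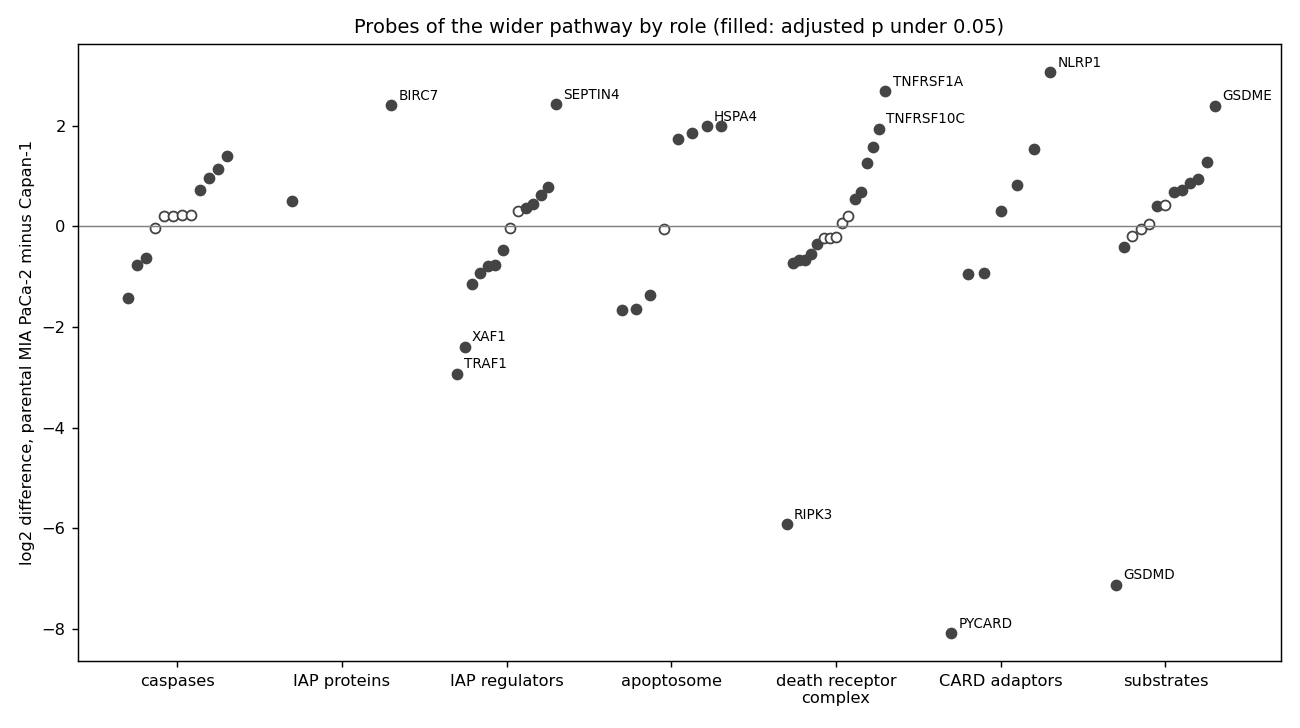
Log2 difference between parental MIA PaCa-2 and parental Capan-1 (vertical axis) for the tested probes of the wider pathway list, grouped by role and ordered by size within a role, filled where the adjusted p passed 0.05 (n = 2 arrays per group). PYCARD, GSDMD and RIPK3 form the lower end, and each role except the IAP proteins has probes on both sides of 0. The fitted values of GSDMD, RIPK3, XAF1, SEPTIN4 and NLRP1 (higher probe) are set against a group not well above background.

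After HOXB7 siRNA, 2 of 50 tested genes of the list passed in MIA PaCa-2, none of 49 in Capan-1, and none of 52 for the difference between the lines, where 2.29%, 0.00528% and 0.0097% of all genes passed. An unadjusted p under 0.05 was found at 11 of 70 probes of the list in MIA PaCa-2, 9 of 69 in Capan-1 and 9 of 73 for the difference, where 20.5%, 12.4% and 11.1% of all probes tested had one. TNFSF10 read -0.60 and -0.75 after siRNA in MIA PaCa-2 against 0.37 and 0.28 in parental cells, a fall by 1.00 ± 0.10 (SE) on the log2 scale at probe 1 (adjusted p = 0.0204), with -0.66 at probe 2 (adjusted p = 0.0735). BIRC5 read 4.46 and 4.34 against 5.11 and 5.14, a difference of -0.72 ± 0.08 (SE, adjusted p = 0.0288). Neither gene had treated arrays that overlapped the parental ones, which was also so for 51.3% of all probes in MIA PaCa-2. Both calls were lost in 7 of the 8 fits that left out 1 array, the exception being the fit without MIA PaCa-2 siRNA replicate 2, and with each line fitted alone.

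Further genes close to the members did not pass in either line. At the brightest probe of each gene in MIA PaCa-2, FADD differed by -0.03, DIABLO by 0.38 and CFLAR by 0.34 (adjusted p = 0.0959), and XAF1 was too dim for a test. In Capan-1, FADD differed by -0.04, DIABLO by 0.13, CFLAR by 0.18, BIRC5 by -0.30 (adjusted p = 0.301) and XAF1 by -0.55. The dimmer probe of CFLAR lay on the other side of 0, at -0.11 in MIA PaCa-2 cells and -0.36 in Capan-1 cells, and that of DIABLO differed by 0.01 and 0.04. BIRC7 lay higher after siRNA on every array of both lines, by 0.94 in MIA PaCa-2 (adjusted p = 0.0532) and 0.54 in Capan-1 (adjusted p = 0.325).

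The genes most like the called members in their pattern over the 8 arrays were listed as a description, among 7859 probes that passed background everywhere and varied by an SD of at least 0.5. The 8 arrays fall into the 2 lines, so these coefficients mostly restate the gap between the lines. For BIRC3 the highest Pearson r belonged to RNFT1, FUT4 and KLHDC7B (0.999 each), and for CASP6 to GRB10 (0.999), PTBP3 (0.998) and HOXA11-AS (0.995). For CASP9 they were TMPO (0.942), MTM1 (0.932) and ACTR6 (0.913). For XIAP probe 1 they were TOB2P1 (0.987), CBLN3 (0.986) and a probe annotated only by an Ensembl transcript (0.979), and for XIAP probe 2 they were BTN2A1 (0.950), WNT11 (0.945) and UBAP2L (0.944), so the probes of XIAP shared no gene among their nearest 3.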

How the data were processed

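RNA of both lines was hybridized to one-color Agilent arrays (2 per group). The authors scanned them with Feature Extraction 9.5.3, per the labels, and deposited background-subtracted, detrended intensity per spot, together with a matrix of log2 values, which equals those intensities within 3.45e-08.

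Here log2 intensities were averaged per probe, leaving out spots flagged as outliers, minus the 75th percentile of each array. Group means were fitted over 8 arrays with limma 3.58.1 (R 4.3.3, package data.table, version 1.17.8) with two-sided tests. A p of 0.05 after Benjamini-Hochberg adjustment was the threshold, and probes were tested where both arrays of a compared group exceeded background. A gene passed when at least 1 probe did, and was called higher or lower when none opposed it; genes with opposed probes were given apart. Bounds ("at least") raise values of the dimmer group to the lowest signal well above background on the array, -6.26 to -5.86. Some brighter probes were still not flagged as well above background, such as CASP14 at -5.82 and -5.22 on the Capan-1 siRNA arrays. The bounds are therefore approximate, most of all for probes near background. An exact permutation of 2 against 2 arrays cannot go below 0.333. The methods of the study name an interval from parental pairs without its window, so it was run as an alternative. It was applied here to single probes. The study also asked for at least 2 probes per gene, signal at most of them and the same direction at all. Members with 1 probe could not pass those rules.

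The set of probes over which limma shares the spread was not fixed beforehand. It was chosen after 4 sets had been run and their calls seen, and the set kept (both arrays of any group above background) is the one an earlier treatment of these data had used. Members and lists were chosen with earlier results of these data known. Named genes are the members, genes of the list that passed, BIRC5, DIABLO, XAF1, CFLAR and FADD, and the 3 nearest patterns; some genes of the list are not reported here. Symbols came from the files or, for 24827 of 34127 probes, RefSeq accessions. Steps were tested on simulated data. Sequences came from the scanner files and RefSeq. Figures used Python 3.11.15, pandas 2.3.3, numpy 2.4.6 and matplotlib 3.10.9.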

Additional observations from a re-analysis of the deposited data

Results flagged for a closer look

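TNFSF10, the ligand TRAIL, moved in opposite directions in the lines on every array, below both parental arrays in MIA PaCa-2 and above both in Capan-1. At probe 1 the Capan-1 arrays read -0.77 and -0.66 after siRNA against -0.97 and -0.89 in parental cells, and the response of MIA PaCa-2 minus that of Capan-1 was -1.21 (interval -1.55 to -0.88, limma adjusted p = 0.094). At probe 2 this value was -0.93 (interval -1.40 to -0.45, adjusted p = 0.2). The tested difference did not pass the threshold at either probe, and the rise within Capan-1 did not pass either. TNFSF10 was a named gene because it had already passed in MIA PaCa-2, so that side of the pattern was selected. Treated arrays wholly apart from parental ones were common, at 51.3% of all probes for MIA PaCa-2 cells, 54.2% for Capan-1 cells. The share of all probes apart in both lines with opposite signs is not given here, so how unusual this pattern is was not tested. Single samples could not be examined for outliers by a test, because each group held 2 arrays.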

How the results depend on the processing

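The parental differences of BIRC3, CASP6, CASP9 and XIAP kept their direction under every alternative, and 3 to 6 members passed, with 6 under normexp background correction (CASP8 and BIRC6 added) and 3 to 5 when 1 array was left out. Among 870 member differences recomputed, 810 kept direction and call, 17 lost a call, 14 gained one and 29 changed sign. After siRNA in MIA PaCa-2, 2 members passed with normexp, over the probes that passed background on each of the 8 arrays, and when the spread followed intensity (the trend). Of the wider list, 4 genes passed there with normexp, 6 with the trend, 1 with the spread shared over all probes, 0 to 2 when 1 array was left out, and 0 without scaling, with spike-in scaling, without the filter, with the replicate block and with each line alone. In Capan-1 normexp called 1 gene of the list, and for the difference of the responses normexp and the trend called 1 each. By the interval of parental arrays, 0 members passed in either line and 2 genes of the list in MIA PaCa-2. The cause of these changes was not tested.

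The 4 sets of probes that share the spread, tried after the data were seen, gave 222 probes lower and 233 higher after siRNA in MIA PaCa-2 (the set kept), 31 and 29 (all probes), 130 and 115 (above background on 1 array) and 326 and 318 (per comparison). No siRNA call of a member differed among them. The shared replicate numbers were not taken to pair the arrays: deviations of same-numbered siRNA and parental arrays correlated at 0.023 (MIA PaCa-2) and 0.038 (Capan-1), and over all 6 pairs of groups the values ran from -0.088 to 0.19, the highest between MIA PaCa-2 parental and Capan-1 siRNA arrays. With the replicate block no member passed in either line. Each slide held 1 line, so a slide term would leave the siRNA comparisons of the main fit unchanged. For the parental comparison none can be fitted.

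Signs turned for small differences. With normexp XIAP probe 2 became 0.021 in MIA PaCa-2, with 0.10 in Capan-1, and the response difference of CASP8 probe 2 became 0.043. Without scaling, where the median probe fell by 0.19 in MIA PaCa-2 and by 0.16 in Capan-1, APAF1 became -0.023 and -0.059, BIRC6 became -0.063 and CASP8 probe 1 -0.010 in MIA PaCa-2, and parental BIRC2 became 0.012. With spike-in scaling, where the median fell by 0.29 in Capan-1, APAF1 became -0.19, CASP8 probe 2 -0.035 and CASP9 -0.047 there, and the response differences of BIRC3 and CASP8 probe 2 became 0.069 and 0.17. Leaving out 1 array gave ranges across 0 for parental BIRC2 (-0.086 to 0.048), for BIRC6 (-0.054 to 0.36) and CASP9 (-0.16 to 0.056) in MIA PaCa-2, for CASP8 probe 1 (-0.77 to 0.31), CASP8 probe 2 (-0.056 to 0.56) and XIAP probe 2 (-0.19 to 0.082) in Capan-1, and for the response differences of APAF1 (-0.037 to 0.23), BIRC2 (-0.0076 to 0.13), BIRC3 (-0.34 to 0.087), CASP8 probe 1 (-0.11 to 0.97) and CASP8 probe 2 (-0.33 to 0.28). With 2 arrays a group, the number of arrays limits the precision of all values.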
